A study of Homo sapiens with 6 samples.

Results

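The NOTCH pathway was followed through 37 genes chosen by symbol: receptors, ligands, the enzymes that glycosylate and cleave the receptors, the nuclear complex, the HES and HEY repressors, and genes of trafficking and feedback. A gene was measured through the probe sets annotated to it alone, and all 37 were measured, by 82 probe sets, among 19775 genes on the arrays. Mesodermal progenitors were compared with undifferentiated human embryonic stem cells (hESC) of H9, an established line, on 3 arrays each. The progenitors had been made from H9 cells in Stemline II, with BMP4, VEGF, FGF2 and activin A added, and were sorted by flow cytometry on day 3.5 as cells without CD326 (EPCAM) that carried CD56 (NCAM1). The hESC were H9 cells that had not been differentiated. Without unsorted cells of day 3.5 among the samples, the effect of the sort and that of the differentiation cannot be told apart. Both groups came from 1 line.

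NOTCH receptors are surface proteins that are activated by DLL and JAG ligands on neighbouring cells. The gamma-secretase complex then frees the intracellular domain of the receptor, which joins the DNA-binding protein RBPJ and a MAML coactivator in the nucleus and switches on repressors of the HES and HEY families. In the embryo the pathway paces the segmentation of paraxial mesoderm and takes part in the choice between endothelial and other fates, and fringe enzymes tune which ligand a receptor answers to.

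The sort antigens chose the cells, and their levels serve to check the labels, not as a result. NCAM1 had intensities of 1429, 1094 and 1105 on the progenitor arrays, against 104, 106 and 84.4 on the hESC arrays. EPCAM had 554, 680 and 675 on the progenitor arrays, against 3245, 3434 and 3366 on the hESC arrays. Of 18 mesoderm genes all 18 rose in the progenitors, and of 15 measured pluripotency genes 14 fell and 1 did not pass. Over all genes 26.7% rose and 21.2% fell. Both lists were chosen with earlier results of these data known, so they are no independent check of the labels. Median intensities of all probe sets lay between 31.0 and 31.2 on the progenitor arrays and between 33.1 and 36.1 on the hESC arrays. Arrays of a group correlated at 0.991 to 0.997 across genes, which are not independent replicates, and arrays of different groups at 0.904 to 0.920. In such bulk samples fewer cells of a type and less RNA per cell cannot be told apart.

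RBPJ binds DNA at the letters TGGGAA, best known within the longer GTGGGAA, so the promoters of the members were searched for both, on both strands. RefSeq promoters of GRCh38.p14, from 250 bases before to 50 bases after the start site, were at hand for 30 of the 37 members. Those of HEY1, the largest increase of the 37, and of DLL1, DLL3, DNER, MFNG, DTX1 and DTX3 were missing. GTGGGAA, every match of which is also a match of TGGGAA, was in 5 of the 8 HES and HEY promoters and in 0 of the 22 others, while 6.248% of 35116 promoters of the same length hold it. TGGGAA alone was in the same 5 HES and HEY promoters and in 1 of the others, that of LFNG, against 24.032% of all promoters. The 5 HES and HEY promoters that hold GTGGGAA are shown: HES1 at chr3:194135898-194136197 (plus strand), HES4 at chr1:1000048-1000347 (minus), HEY2 at chr6:125749382-125749681 (plus), HES5 at chr1:2530214-2530513 (minus) and HEYL at chr1:39639594-39639893 (minus). Each is written 5′ to 3′ along its gene, and capitals mark TGGGAA or GTGGGAA on either strand, so that TTCCCA and TTCCCAC are the same letters on the opposite strand.
HES1: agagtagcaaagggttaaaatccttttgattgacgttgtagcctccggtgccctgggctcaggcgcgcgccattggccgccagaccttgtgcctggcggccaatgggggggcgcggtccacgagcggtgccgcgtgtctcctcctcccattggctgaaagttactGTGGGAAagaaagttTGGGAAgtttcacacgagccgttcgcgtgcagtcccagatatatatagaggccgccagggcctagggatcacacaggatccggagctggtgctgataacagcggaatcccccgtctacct
HES4: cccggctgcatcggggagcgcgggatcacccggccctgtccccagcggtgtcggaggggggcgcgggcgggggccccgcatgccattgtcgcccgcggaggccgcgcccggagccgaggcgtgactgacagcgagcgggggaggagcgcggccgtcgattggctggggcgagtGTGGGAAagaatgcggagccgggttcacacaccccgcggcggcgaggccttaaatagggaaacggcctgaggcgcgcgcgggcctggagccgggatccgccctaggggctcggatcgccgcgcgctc
HEY2: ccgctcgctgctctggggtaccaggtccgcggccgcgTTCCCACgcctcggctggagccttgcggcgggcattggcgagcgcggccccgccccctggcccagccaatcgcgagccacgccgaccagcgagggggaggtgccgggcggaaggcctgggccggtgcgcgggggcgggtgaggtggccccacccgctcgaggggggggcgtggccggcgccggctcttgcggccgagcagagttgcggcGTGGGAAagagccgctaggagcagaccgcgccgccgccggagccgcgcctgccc
HES5: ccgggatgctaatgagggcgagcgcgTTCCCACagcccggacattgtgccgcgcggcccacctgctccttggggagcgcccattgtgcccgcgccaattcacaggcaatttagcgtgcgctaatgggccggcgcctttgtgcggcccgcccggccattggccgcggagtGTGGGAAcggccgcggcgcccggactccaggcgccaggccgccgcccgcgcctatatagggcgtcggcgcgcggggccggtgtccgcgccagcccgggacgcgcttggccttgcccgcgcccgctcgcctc
HEYL: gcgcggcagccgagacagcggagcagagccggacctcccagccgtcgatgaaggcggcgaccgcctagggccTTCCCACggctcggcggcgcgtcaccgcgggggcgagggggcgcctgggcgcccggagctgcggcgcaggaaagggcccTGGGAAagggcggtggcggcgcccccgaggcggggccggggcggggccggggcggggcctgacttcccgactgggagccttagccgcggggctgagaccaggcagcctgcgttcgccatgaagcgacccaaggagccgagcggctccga
The promoter of HES1 holds TGGGAA at positions -84 and -70 from the start site on the strand of the gene. HEY2, HES5 and HEYL hold 2 matches on opposite strands, and HES4 holds 1, at -76. Of these genes HES1, HES4 and HEY2 were higher in the progenitors and HES5 and HEYL lower. With scaling on hybridization controls the calls of HES5 (-0.22) and HEYL (-0.20) were both lost. CACNAG, a letter string that HES proteins bind, was found in 14 of the 30 member promoters (46.7%) and in 38.028% of all promoters. A match is a description of the letters and no measured binding.

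Of the 37 genes 10 rose, 16 fell and 11 did not pass the test in the progenitors. A gene was called at an adjusted p under 0.05 in limma, with the adjustment made over all 19775 genes. Over all genes 47.9% were called, 26.7% higher and 21.2% lower. The share of members that rose, 27%, was near this background, and the share that fell was 43.2%, a difference from the background that was not tested. That background takes in dim genes. With the dimmer 50% of the 19775 genes left out, 7 of 26 members rose and 14 fell, and 3780 of all remaining genes rose and 3079 fell. Changes of at least 2-fold were found for 9 members that rose and 10 that fell, against 9.39% and 7.22% of all genes. The median log2 change was -0.23 over the members and 0.04 over all genes. Groups did not overlap for 28 of the 37 members, where 57.3% of all genes showed no overlap. Array scaling changed the split of calls. Centring every array on its median gene value gave 10 members higher and 20 lower, with a median change over all genes of -0.15. Scaling on hybridization controls gave 14 higher and 13 lower, with a median over all genes of 0.32.

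**Figure D1:**
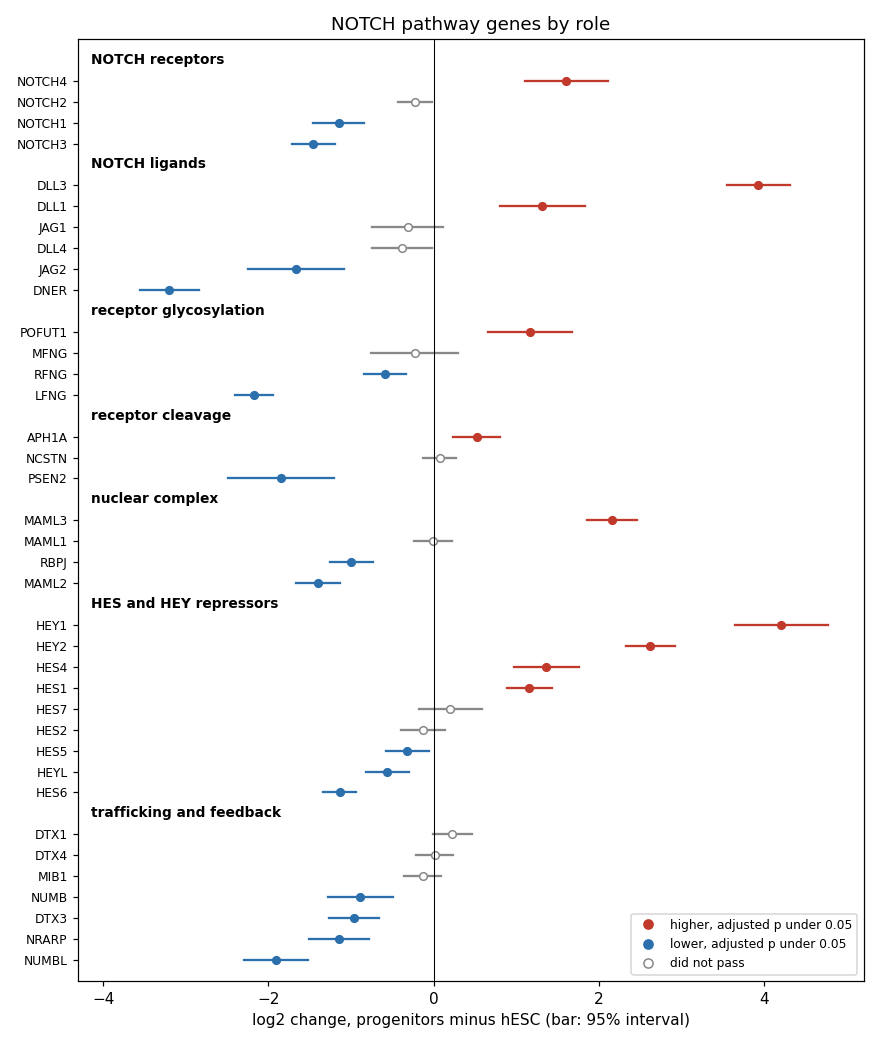
Log2 change (progenitors minus hESC, on the log2(intensity + 16) scale) of the 37 genes, grouped by role; points are estimates, bars 95% intervals, and open grey points did not pass at an adjusted p under 0.05. HEY1 (4.21) and DLL3 (3.93) lie farthest to the right and DNER (-3.20) farthest to the left.

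The receptors moved in opposite directions. NOTCH1 and NOTCH3 fell, NOTCH4 rose and NOTCH2 did not pass. NOTCH1, the receptor best known from early embryonic patterning and blood, had intensities of 747, 575 and 566 on the progenitor arrays, against 1477, 1661 and 1277 on the hESC arrays. Every progenitor array was below every hESC array, and the log2 change was -1.15 (SE 0.13, adjusted p = 0.000294 in limma). NOTCH3, a receptor of mural cells around vessels, had 570, 502 and 532 on the progenitor arrays, against 1685, 1686 and 1291 on the hESC arrays. The groups were again apart, with a log2 change of -1.46 (SE 0.11, adjusted p = 3.58e-05). NOTCH4, a receptor of endothelial cells, had 144, 115 and 113 on the progenitor arrays, against 17.1, 45.8 and 35.4 on the hESC arrays. All progenitor arrays were higher, by 1.61 on the log2 scale (SE 0.21, adjusted p = 0.00062), and the hESC arrays spread over more than the progenitor arrays. NOTCH2 had 2156, 2005 and 2006 on the progenitor arrays, against 2534, 2779 and 2277 on the hESC arrays. Its groups did not overlap, yet the change of -0.23 (95% interval -0.43 to -0.02) missed the threshold at an adjusted p = 0.0704. NOTCH2 passed in 7 alternatives, among them without hESC array 3 (-0.27), and its sign turned with scaling on hybridization controls (0.23). Its brightest probe set is of the kind that can match several transcripts, and the NOTCH2NL genes are close copies of part of NOTCH2. A dimmer probe set of NOTCH2 fell by 0.35 (adjusted p = 0.034 over all probe sets).

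Among the ligands, the delta-like genes DLL1 and DLL3 rose, JAG2 and DNER fell, and DLL4 and JAG1 did not pass. DLL3, which in mouse acts within the cell to hold NOTCH signalling back and is expressed in presomitic mesoderm, had intensities of 949, 1302 and 1311 on the progenitor arrays, against 71.8, 57.8 and 70.1 on the hESC arrays. That is a log2 change of 3.93 (SE 0.16, adjusted p = 1.87e-06), or 15.2-fold on this scale, with no overlap. The other 3 probe sets of DLL3 rose too, by 3.17, 2.93 and 3.03. Every probe set of DLL3 and of DLL1 is of the kind that can match several transcripts. DLL1, the activating ligand of the presomitic mesoderm, had 193, 335 and 333 on the progenitor arrays, against 103, 118 and 87.6 on the hESC arrays. It rose by 1.31 (SE 0.22, adjusted p = 0.0019), with progenitor array 1 nearest to the hESC arrays.

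JAG2, a ligand of the jagged family, had 97.1, 43.1 and 38.9 on the progenitor arrays, against 219, 232 and 192 on the hESC arrays. It fell by 1.67 (SE 0.25, adjusted p = 0.00104), and a second probe set fell by 1.02. That second probe set was the brighter one without hESC array 2, where the change of JAG2 was -1.01. DNER, a transmembrane protein of neurons that has been described as an unconventional ligand, had 20.2, 20.6 and 23.0 on the progenitor arrays, against 346, 262 and 409 on the hESC arrays. Its log2 change of -3.20 (SE 0.15, adjusted p = 3.58e-06) was the largest decrease among the 37 genes on this scale. On all 3 progenitor arrays DNER lay below the median of all probe sets. JAG1, the ligand of many developing vessels and of the heart, had 1258, 783 and 827 on the progenitor arrays, against 1111, 1391 and 1187 on the hESC arrays. The groups overlapped through progenitor array 1, and the change was -0.32 (95% interval -0.74 to 0.11, adjusted p = 0.203). Without that array JAG1 was lower by 0.53 and passed (adjusted p = 0.0104). DLL4, the ligand of arterial and sprouting endothelium, had 4.92, 4.23 and 9.64 on the progenitor arrays, against 16.7, 18.0 and 8.15 on the hESC arrays, below the array median on all 6 arrays. Its change of -0.38 (95% interval -0.74 to -0.02) did not pass, but it did without progenitor array 3 (-0.50) or hESC array 3 (-0.52).

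**Figure D2:**
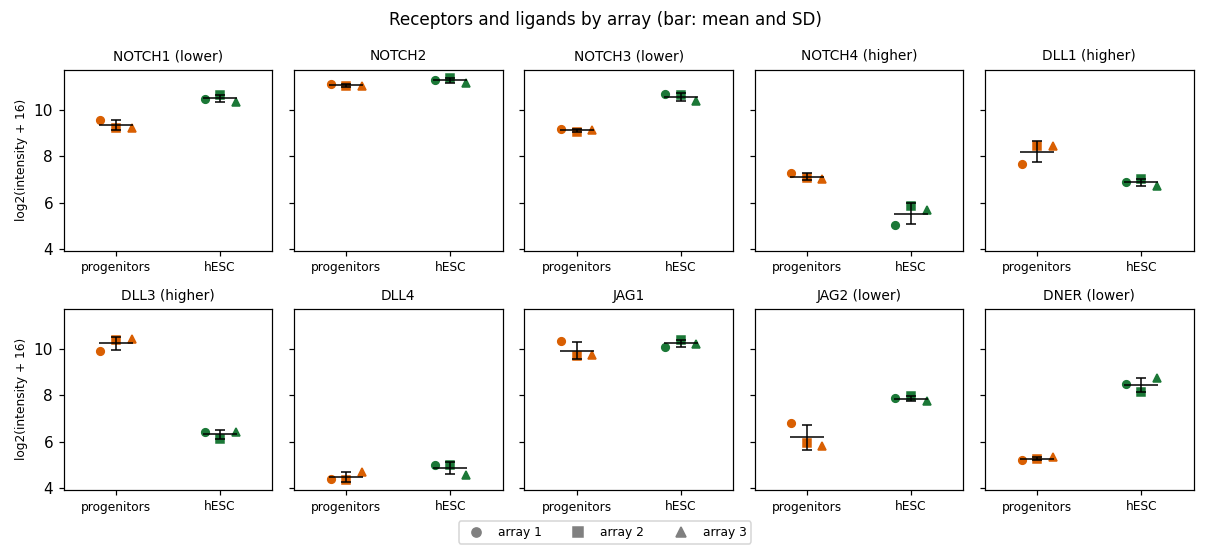
Normalized level, log2(intensity + 16), of the 4 receptors and 6 ligands on each array, progenitors to the left and hESC to the right; marker shapes give the array number, and bars the mean and SD of 3 arrays. DLL3 lies near 10.25 in the progenitors and 6.32 in hESC, and JAG1 overlaps between the groups because of progenitor array 1.

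The enzymes that modify the receptors moved apart from each other. LFNG (lunatic fringe), which adds a sugar to fucose on the receptor and cycles with the segmentation clock in mouse, had intensities of 120, 120 and 112 on the progenitor arrays, against 656, 537 and 582 on the hESC arrays. It fell by 2.17 (SE 0.10, adjusted p = 2.91e-06), and the 3 progenitor arrays agreed closely. A second probe set of LFNG was dim, below the array median on every array, and differed by 0.02. RFNG (radical fringe) had 388, 316 and 363 on the progenitor arrays, against 543, 593 and 482 on the hESC arrays, and fell by 0.59 (SE 0.11, adjusted p = 0.003). That call was lost, at -0.07, with scaling on hybridization controls. MFNG (manic fringe) had 31.8, 20.9 and 11.9 on the progenitor arrays, against 42.5, 25.8 and 24.3 on the hESC arrays, with overlapping groups and a change of -0.23 (95% interval -0.75 to 0.29). POFUT1, which adds the fucose that the fringes extend, had 153, 137 and 154 on the progenitor arrays, against 62.6, 38.8 and 80.7 on the hESC arrays. It rose by 1.17 (SE 0.22, adjusted p = 0.00334), so that the enzyme of the first step and 2 of the 3 fringes changed in opposite directions.

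Of the gamma-secretase genes PSEN2 fell, APH1A rose and NCSTN did not pass. PSEN2, a presenilin and thus a catalytic subunit, had 135, 52.2 and 56.6 on the progenitor arrays, against 287, 295 and 356 on the hESC arrays. The change was -1.85 (SE 0.27, adjusted p = 0.00103), with progenitor array 1 nearest to the hESC arrays. APH1A, a scaffold subunit, had 1250, 1058 and 1065 on the progenitor arrays, against 770, 744 and 924 on the hESC arrays. It rose by 0.52 (SE 0.12, adjusted p = 0.00926), and a second probe set rose by 0.95. NCSTN (nicastrin), the substrate-binding subunit, had 761, 702 and 776 on the progenitor arrays, against 695, 737 and 752 on the hESC arrays. The groups overlapped, with a change of 0.07 (95% interval -0.13 to 0.27). With scaling on hybridization controls NCSTN passed, at 0.55 (adjusted p = 0.00426).

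In the nuclear complex RBPJ and MAML2 fell, MAML3 rose and MAML1 did not pass. RBPJ, the DNA-binding partner of every NOTCH receptor, had intensities of 1273, 1532 and 1511 on the progenitor arrays, against 3264, 3007 and 2803 on the hESC arrays. It fell by 0.99 (SE 0.11, adjusted p = 0.00023), and both other probe sets of RBPJ fell, with log2 changes of -0.63 and -1.66. The coactivators of the MAML family are close relatives that serve the same complex, and they moved in different directions here. MAML3 had 328, 251 and 236 on the progenitor arrays, against 54.6, 52.0 and 42.0 on the hESC arrays, a rise of 2.16 (SE 0.13, adjusted p = 1.12e-05). MAML2 had 234, 190 and 173 on the progenitor arrays, against 545, 516 and 564 on the hESC arrays, a log2 change of -1.40 (SE 0.11, adjusted p = 5.05e-05). A dim second probe set of MAML2 went against this, with 24.9, 21.5 and 24.3 on the progenitor arrays, against 6.13, 9.21 and 17.1 on the hESC arrays, and a rise of 0.65 (adjusted p = 0.0112 over all probe sets). MAML1 had 1250, 1164 and 1113 on the progenitor arrays, against 1364, 1278 and 1105 on the hESC arrays. Its groups overlapped, with a change of -0.01 (95% interval -0.24 to 0.22). With scaling on hybridization controls the sign of MAML1 turned, to 0.44 (adjusted p = 0.0103).

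Of the 9 HES and HEY repressors, chosen by symbol and not as a measure of pathway activity, 4 rose, 3 fell and 2 did not pass. Over all genes 26.7% rose and 21.2% fell, and the difference from these shares was not tested. HEY1, a repressor of heart and vessel development, had intensities of 1695, 965 and 988 on the progenitor arrays, against 44.9, 47.5 and 66.2 on the hESC arrays. With a log2 change of 4.21 (SE 0.24, adjusted p = 9.06e-06), or 18.5-fold on this scale, it had the largest increase of the 37 genes, and its second probe set rose by 4.46. HEY2, which acts with HEY1 in the heart and in arteries, had 651, 724 and 694 on the progenitor arrays, against 110, 85.6 and 110 on the hESC arrays. It rose by 2.62 (SE 0.13, adjusted p = 3.96e-06) with little spread among progenitor arrays, and its second probe set rose by 2.22. HEYL, the third family member, had 56.2, 59.1 and 46.6 on the progenitor arrays, against 104, 86.1 and 87.1 on the hESC arrays. It went the other way, with a change of -0.56 (SE 0.11, adjusted p = 0.00414), and lost the call with scaling on hybridization controls (-0.20) or on the mean of its probe sets (-0.16).

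HES1, the most widely used HES repressor and one whose level oscillates in many mouse progenitors, had 755, 762 and 830 on the progenitor arrays, against 361, 388 and 291 on the hESC arrays. It rose by 1.16 (SE 0.12, adjusted p = 0.000146), and a second bright probe set rose by 1.84. HES4, a gene that mouse lacks, had 74.3, 42.7 and 52.8 on the progenitor arrays, against 17.8, 10.5 and 11.9 on the hESC arrays. It rose by 1.36 (SE 0.17, adjusted p = 0.000412), and on all 3 hESC arrays it lay below the median of all probe sets. The only probe set of HES4 is of the kind that can match several transcripts. HES6, which in mouse counteracts HES1 and promotes neuronal differentiation, had 366, 364 and 358 on the progenitor arrays, against 782, 912 and 787 on the hESC arrays. It fell by 1.14 (SE 0.09, adjusted p = 3.51e-05), opposite to HES1. HES5, a NOTCH target of neural progenitors, had 3.36, 2.10 and 6.12 on the progenitor arrays, against 8.21, 8.62 and 11.2 on the hESC arrays. The call for HES5 (-0.32, SE 0.11, adjusted p = 0.047) was lost when any 1 array except progenitor array 3 was left out, and its level was below the array median on all 6 arrays. HES2 and HES7 also lay below the array median on all 6 arrays and did not pass, and HES7 is a clock repressor of somite formation. HES7 had 12.3, 5.63 and 15.3 on the progenitor arrays, against 11.2, 5.47 and 7.89 on the hESC arrays, a change of 0.20 (95% interval -0.18 to 0.58). HES2 had 4.06, 5.88 and 4.90 on the progenitor arrays, against 8.21, 4.33 and 10.0 on the hESC arrays, a change of -0.13 (95% interval -0.39 to 0.14).

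**Figure D3:**
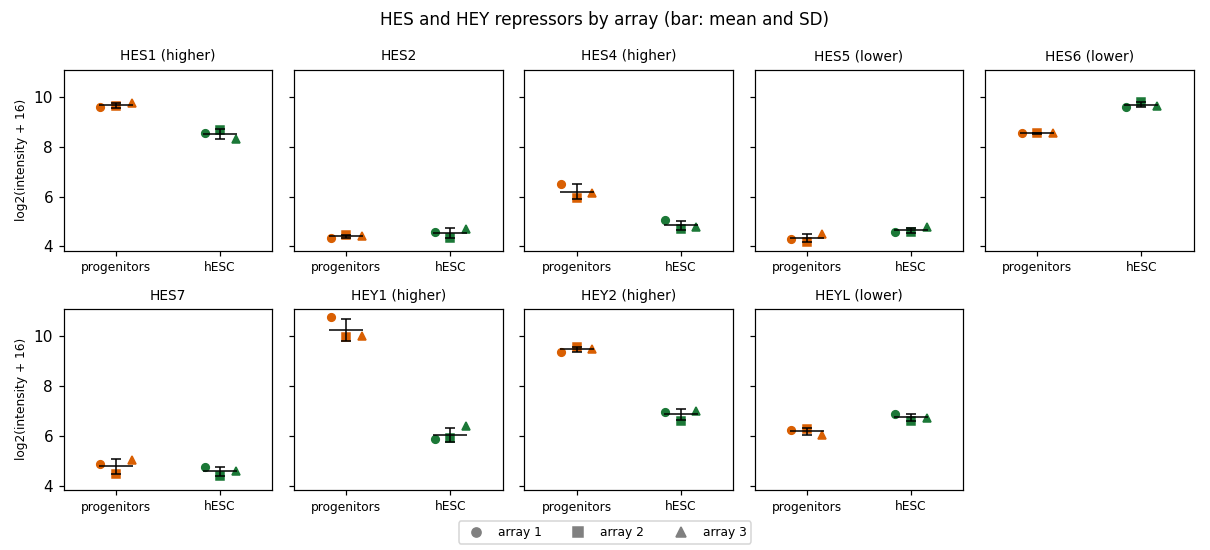
Normalized level, log2(intensity + 16), of the 9 HES and HEY genes on each array, progenitors to the left and hESC to the right; marker shapes give the array number, and bars the mean and SD of 3 arrays. HEY1, HEY2, HES1 and HES4 are higher in the progenitors without overlap, and HES2, HES5 and HES7 lie at the low end in both groups.

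Among the genes of trafficking and feedback 4 of 7 fell and 0 rose, with 0 higher at an unadjusted p under 0.05 in limma too. Over all genes 21.2% fell and 26.7% rose, and the difference from these shares was not tested. NRARP, a NOTCH target that feeds back to dampen the nuclear complex, had 176, 114 and 134 on the progenitor arrays, against 337, 277 and 365 on the hESC arrays. It fell by 1.15 (SE 0.15, adjusted p = 0.000648), whereas HEY1, HEY2, HES1 and HES4 rose. NUMB and NUMBL are endocytic adaptors that remove NOTCH from the surface. NUMBL had 438, 479 and 473 on the progenitor arrays, against 1929, 2317 and 1370 on the hESC arrays. It fell by 1.91 (SE 0.17, adjusted p = 7.34e-05). A dimmer probe set of NUMBL did not show this fall, with a change of 0.06 (adjusted p = 0.72 over all probe sets). Both probe sets of NUMBL are of the kind that can match several transcripts, so NUMBL was not tested where that kind was left out. NUMB had 36.9, 56.7 and 57.7 on the progenitor arrays, against 116, 130 and 88.3 on the hESC arrays, and fell by 0.89 (SE 0.17, adjusted p = 0.00349). It was read from the 1 probe set annotated to it alone, and 3 others, shared with an overlapping gene, were not used.

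The Deltex genes encode ubiquitin ligases that bind NOTCH. DTX3 had 426, 555 and 515 on the progenitor arrays, against 1034, 1093 and 908 on the hESC arrays, and fell by 0.97 (SE 0.13, adjusted p = 0.000606). A dim probe set of DTX3 fell by 0.36, and its other probe sets, at -0.30, -0.135 and -0.14, did not pass. DTX4 had 606, 540 and 531 on the progenitor arrays, against 536, 542 and 611 on the hESC arrays, with overlapping groups and a change of 0.01 (95% interval -0.21 to 0.23), which was 0.50 and passed with scaling on hybridization controls. DTX1, a NOTCH target in lymphocytes, had 27.5, 34.9 and 34.3 on the progenitor arrays, against 24.9, 30.8 and 29.0 on the hESC arrays. After normalization its groups did not overlap, but the change of 0.23 (95% interval -0.01 to 0.46) did not pass, except without progenitor array 1 (0.30), with array weights (0.36) and with scaling on hybridization controls (0.47). MIB1, the ligase that makes ligands competent in the sending cell, had 1123, 1111 and 1158 on the progenitor arrays, against 1354, 1451 and 1139 on the hESC arrays. The change was -0.13 (95% interval -0.36 to 0.09), while a dimmer probe set of MIB1 rose by 0.60 (adjusted p = 0.00527 over all probe sets), so that its probe sets disagree.

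The size of many changes depended on the probe set: on the mean of all probe sets of a gene, 12 of the 19 called members with several probe sets had changes more than 1.5 times smaller, such as MAML2 (-0.38), MAML3 (0.77), NUMBL (-0.92), LFNG (-1.08), NOTCH4 (0.69) and DTX3 (-0.38). The brightest probe set stood for each gene, and the 45 other probe sets of the 37 genes were tested singly. Of these, 9 rose and 7 fell, with the adjustment made over all probe sets. In 12 cases the call was that of the brightest probe set, and in 1 case, MAML2, it was the opposite. The remaining calls belonged to genes whose brightest probe set did not pass, MIB1, NOTCH2 and NCSTN, where a dim probe set of NCSTN fell by 0.36. Of all 82 probe sets 25 lay below the array median on every array.

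**Figure D4:**
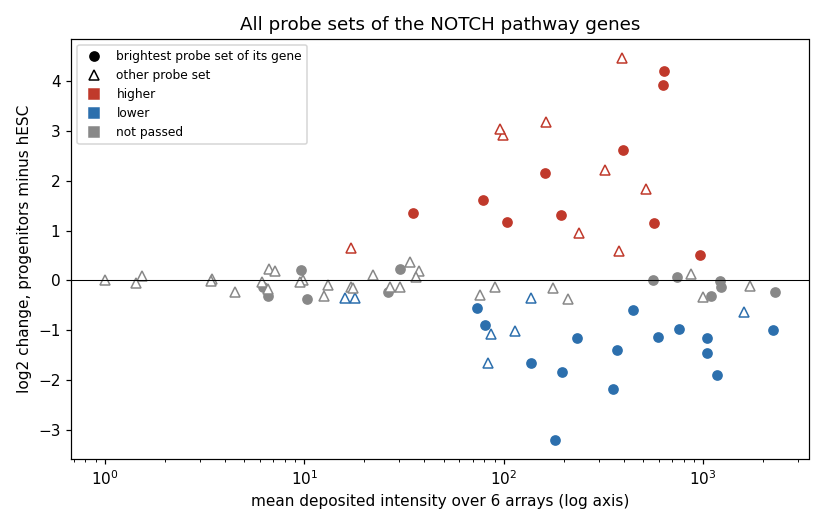
Log2 change of all 82 probe sets of the 37 genes against their mean deposited intensity over 6 arrays (log axis); filled circles are the brightest probe set of a gene, open triangles the others, and colour gives the call with adjustment over all probe sets. Below an intensity of about 10 no probe set passed, and the triangles of DLL3, HEY1, HEY2 and HES1 lie with the increases.

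The 3 progenitor arrays were not alike for these genes. Progenitor array 1 was over 0.5 higher, on the log2 scale, than the mean of arrays 2 and 3 for 5 of the 37 genes, PSEN2 (1.02), JAG2 (0.92), HEY1 (0.78), JAG1 (0.62) and MFNG (0.58). It was over 0.5 lower for 1, DLL1 (-0.78), with DLL3 at -0.49. Over all genes 4.18% were as much higher and 2.46% as much lower on that array. Between progenitor arrays 2 and 3 only HES7 differed by more than 0.5 among the 37. Without array 1 the increase of HEY1 was 3.94, that of DLL1 1.57 and that of DLL3 4.09, and 11 members rose and 16 fell.

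Genes of endothelium and arteries were higher on progenitor array 1 too. All 26 of the list were higher there than on the mean of arrays 2 and 3, by a median of 0.63, and their summed intensity was 19563 on array 1, 11199 on array 2 and 11424 on array 3, against 5021 to 6102 on the hESC arrays. CDH5 (VE-cadherin), which joins endothelial cells, had 1012, 102 and 121 on the progenitor arrays, against 1.40, 1.90 and 2.38 on the hESC arrays. No gene of the list was at 1 or less on all progenitor arrays, and 2 lay below the array median on each of them. Genes of the segmentation clock and presomitic mesoderm were mixed on that array. Of 15 measured genes 6 had a positive difference, array 1 minus the mean of arrays 2 and 3, with a median of -0.13 and summed intensities of 2559, 2857 and 2879 on the progenitor arrays, against 440 to 523 on the hESC arrays. Among them MESP1 and MESP2, the second a NOTCH-dependent somite gene in mouse, were lower on array 1, with differences of -0.63 and -0.34. Chosen after their values were seen, PAX3 (0.91), FGF8 (0.74) and EPHA4 (0.55) were higher there. The part of either set of cells in the levels of the NOTCH genes was not tested.

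**Figure D5:**
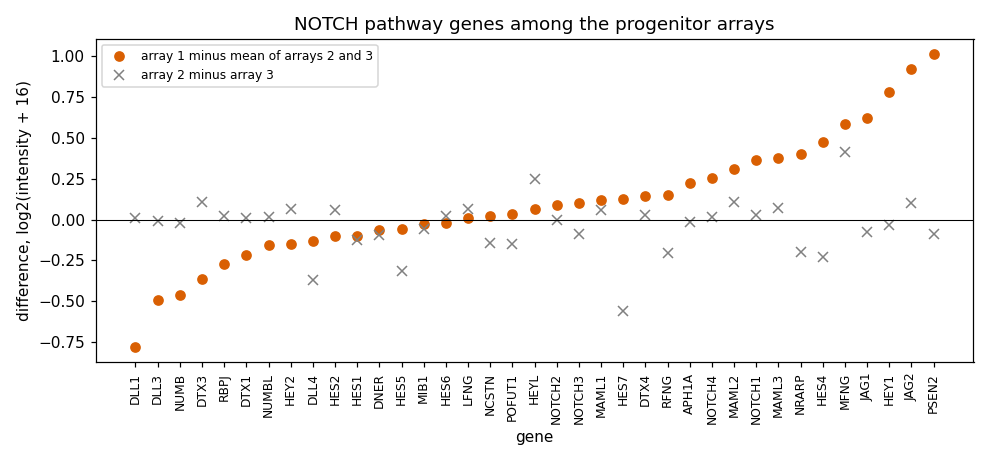
Difference among progenitor arrays, on the log2(intensity + 16) scale, for each of the 37 genes; circles give array 1 minus the mean of arrays 2 and 3, and crosses array 2 minus array 3. DLL1 and DLL3 lie at the low end and HEY1, JAG2 and PSEN2 at the high end, while most crosses stay near 0.

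Between the groups, 15 of the 26 endothelial and arterial genes rose and 1 fell, with a median log2 change of 1.31. Over all genes 26.7% rose and 21.2% fell. Their largest increases were those of NRP1 (4.89), a VEGF and semaphorin coreceptor, the blood and vessel regulator LMO2 (3.97), CDH5 (3.85) and SOX7 (3.62). Without progenitor array 1, 15 rose and 2 fell, and the increases of CDH5, SOX7 and LMO2 were 2.85, 2.92 and 3.49. FLT4, a receptor of lymphatic endothelium, fell by 0.88. Among the 15 segmentation and presomitic genes 7 passed as higher and 1 as lower, against the same shares over all genes, and the median was 0.67. The remaining 7 did not pass. The difference of either list from these shares was not tested. MESP1 rose by 5.22, TBXT (brachyury) by 3.13, MESP2 by 2.93 and the posterior homeobox gene CDX2 by 1.86, while TCF15, a somite factor, fell by 0.59. MESP1 and TBXT are in the mesoderm list too, so the counts of these lists overlap.

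The pathway's further genes, those of other ligands, proteases, ubiquitin ligases and corepressors, changed in both directions. Among 45 measured genes there were 17 increases and 15 decreases past the test, with a median log2 change of 0.00, where all genes had 26.7% higher, 21.2% lower and a median of 0.04. DLK1, a membrane protein related to the delta ligands that can dampen NOTCH, had the largest increase, with 2856, 1329 and 1284 on the progenitor arrays, against 58.7, 51.8 and 71.8 on the hESC arrays. It rose by 4.57 (SE 0.30, adjusted p = 1.78e-05) and exceeded the mean of progenitor arrays 2 and 3 by 1.10 on array 1. FURIN, the protease that cuts the receptor precursor, rose by 2.38, and BHLHE40, a repressor related to the HES family, by 3.16. CNTN1 (contactin 1), a neural adhesion protein reported to bind NOTCH, had 9.06, 12.4 and 16.2 on the progenitor arrays, against 189, 248 and 220 on the hESC arrays, a log2 change of -3.04. The TLE corepressors, which HES proteins recruit, split: TLE3 rose by 1.31 and TLE4, chosen after its value was seen, by 0.88, whereas TLE1 and TLE2 fell by 2.25 and 1.30. TLE1 and TLE2 were higher on progenitor array 1 than on the others by 0.68 and 0.95.

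Genes of neural and endodermal cells, which differentiating cultures can also contain, were counted too. Over all genes 26.7% rose and 21.2% fell, and the difference of either list from these shares was not tested. Of 17 proneural and neuroectodermal genes 2 rose, 5 fell and 10 did not pass. SOX3, a factor of the early neural plate that hESC also express, had the largest decrease of that list, with 50.6, 19.9 and 27.5 on the progenitor arrays, against 420, 373 and 470 on the hESC arrays, and LHX2 the largest increase, 1.67. The summed intensity of the neural list was 11354 to 11657 on the progenitor arrays and 13131 to 14083 on the hESC arrays, and 8 of its genes lay below the array median on all progenitor arrays. TUBB3, chosen after its values were seen, had 5985, 6444 and 6626 on the progenitor arrays, the largest part of that sum. It had 6218, 6181 and 6331 on the hESC arrays and did not pass. Among 12 endodermal genes 7 passed as higher and 2 as lower, and their summed intensity was 6668 to 8108 on the progenitor arrays, against 1567 to 1729 on the hESC arrays. SOX17 and CXCR4, both higher and chosen after their values were seen, are in the endothelial list too, so the counts of these lists overlap. CER1, an antagonist of nodal, rose by 4.58, KRT19 by 2.54 and HHEX by 2.67, while AFP and FOXA3 fell by 0.58 and 0.49. KRT19 alone had 4546, 4908 and 4919 on the progenitor arrays, the largest part of that sum. HHEX had 626, 91.7 and 102 on the progenitor arrays. None of these 12 genes was at 1 or less on all progenitor arrays, and 3 lay below the array median there. The part of these lineages in the changes of the 37 genes was not tested.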

How the data were processed

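The authors deposited one value per probe set and array, an intensity whose range shows a linear scale. For probe summarisation, background correction and scaling the methods were not given in the sources used here. Low deposited intensities pile up at 1: 2.15% equalled it and 19 values lay below it. Per the labels' protocols, RNA was isolated with a column micro kit and biotinylated cRNA was made in an amplification step. Among 54675 probe sets, 41097 carried 1 gene symbol, 1801 carried several and 11777 had none in the annotation used. For 41043 the gene identifier was found in the reference and its symbol there was used, whether or not it differed. The 62 array controls were left out.

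The deposited intensities were converted to log2(intensity + 16), quantile-normalized and reduced to 19775 genes, each represented by its probe set with the highest mean. Fold changes on this scale understate the change of dim genes. The test was the two-sided moderated one of limma 3.58.1 (lmFit, eBayes; R 4.3.3), with 6 arrays in 2 groups, no covariate, and the Benjamini-Hochberg adjustment over all genes. Figures used matplotlib 3.10.9.

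Precision is limited by having 3 arrays per group, and no detection calls were used. Separate cultures are not stated in the labels. The p-values therefore reflect the spread among these samples alone, and that spread may be technical. Members, roles and the other gene lists were chosen with earlier results of these data known. All 37 members are accounted for. From each other list the genes named are among the 4 largest increases and the 4 largest decreases past the threshold. PAX3, FGF8, EPHA4, TLE4, TUBB3, SOX17 and CXCR4 are exceptions, chosen after their values were seen. Of these, PAX3, FGF8 and TUBB3 did not pass. Alternatives covered the scaling, the pseudocount, a filter on dim genes, the choice of probe set, the variance model, array weights, a replicate block, averaging progenitor arrays 2 and 3, a 2-fold minimum and leaving out each array.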

Additional observations from a re-analysis of the deposited data

How the results depend on the processing

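Of the 26 called members 21 kept direction and call under every alternative that tested them, the 2-fold minimum aside, and none of the 26 changed sign. Those that lost the call at least once were RFNG, APH1A, HES1, HES5 and HEYL. HES1 (0.02) and APH1A (0.37) lost it when probe sets with the suffixes _s_at, _x_at and _a_at, which may match several transcripts, were left out and a dim probe set took the place of the bright ones, and HES5 lost it in 11 of 18 alternatives. Leaving out those suffixes tested 28 members and gave 5 higher, against 10. Of the members that rose, DLL1, DLL3 and HES4 have only probe sets with those suffixes and were not tested there. The same holds for NOTCH3, PSEN2, HEYL and NUMBL among those that fell. On the mean of probe sets 12 called members had changes more than 1.5 times smaller, and HEYL (-0.16) lost the call. With a 2-fold minimum 10 members were lower, and 1857 genes were higher and 1427 lower in all. Median centring gave 6447 lower genes, and scaling on hybridization controls 9102 higher and 2002 lower, by construction a shift of all genes. Leaving out 1 array gave 10 to 11 members higher and 15 to 17 lower, and 4359 to 5316 genes higher and 3515 to 4032 lower.

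Of the 11 members not called, 8 passed with the same sign in at least 1 alternative: NOTCH2 in 7 (as low as -0.44 with median centring), DLL4 in 4, JAG1 and DTX1 in 3 each, and MFNG (-0.66, array weights), NCSTN (0.55) and DTX4 (0.50, both with scaling on hybridization controls) and MIB1 (-0.36, median centring) in 1 each. Of the same 11, 7 changed sign under an alternative. With scaling on hybridization controls NOTCH2 was at 0.23, JAG1 at 0.14, MAML1 at 0.44 and MIB1 at 0.31. With median centring NCSTN was at -0.11, DTX1 at -0.024 and DTX4 at -0.16. On the mean of probe sets NCSTN was at -0.14 and MIB1 at 0.11. DTX4 was at -0.01 without normalization. MAML1 was at 0.01 with progenitor arrays 2 and 3 averaged. Leaving out 1 array put DTX4 at -0.038 to 0.075 and MAML1 at -0.078 to 0.048.

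Replicate numbers were not taken to pair the samples: deviations from the group means of same-numbered arrays correlated at -0.022, 0.027 and -0.038 across genes. With the replicate number as a block 10 members were higher and 16 lower, and 4956 genes higher and 3924 lower. No member changed its call under the block. Members below the array median on all 6 arrays (DLL4, HES2, HES5 and HES7) have signals at which the arrays limit what can be compared.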
